A study of Xenopus laevis with 28 samples.

Results

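Full-grown oocytes of *Xenopus laevis* were compared with unfertilized eggs, the cells they become by maturation. The comparison used 3 of the 28 libraries of the series, which are 1 library of oocytes of classes 5-6 and 2 libraries of eggs. Among 45831 gene models, 12622 reached 10 TPM (a level corrected for the length of the model and the size of the library) on 1 side, in the oocyte library or as the mean of the eggs. These are described here, and 7941 of them carry a gene symbol. A direction was accepted where both eggs lay on the same side of the oocyte library. All 3 libraries held polyA RNA of the J strain, an inbred line, with no treatment given in the labels. The oocytes and 1 egg library carry the clutch name Ueno and the other egg library the clutch name Taira. In the library titles each name is followed by its own number code, so the egg libraries may differ in more than the clutch. Whole material was minced before extraction, and the labels do not say whether follicle cells had been removed, how many cells were pooled, or whether oocytes and eggs came from the same female.

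Full-grown oocytes rest in the prophase of meiosis until progesterone releases them. The germinal vesicle, their large nucleus, then breaks down, the meiotic divisions resume, and the egg arrests in metaphase of the second division until fertilization. Transcription is silent during maturation, and stored mRNAs are instead switched on or off by the length of their poly(A) tails. Messages with cytoplasmic polyadenylation elements, bound by CPEB proteins, gain tails and are translated, whereas many others, ribosomal protein mRNAs among them, are known in *Xenopus* to lose their tails by default. Since the libraries were made by poly(A) capture, a change in the amount of an RNA and a change in its tail cannot be told apart here. Nor can fewer cells of a type and less RNA per cell.

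The libraries differed in shape as well as in content. The 10 highest models held 25074 TPM in the oocyte library, 92106 TPM in the Taira egg and 55537 TPM in the Ueno egg, and 17744, 17233 and 14949 models reached 1 TPM. Over the 12622 models the median absolute difference of log2(TPM + 1) was 0.84 between the eggs, against 1.48 from the oocyte library to the Taira egg and 1.65 to the Ueno egg. The oocyte library had a Spearman correlation of 0.871 with the Taira egg and 0.828 with the Ueno egg, and the eggs had 0.94 with each other. Depth is unknown, because TPM keeps no read counts. Markers of the oocyte were present: gdf9.L and bmp15.L, oocyte-secreted growth factors, stood at 34.6 and 92.8 TPM, and the linker histone h1foo.L at 512.9 TPM. Of 46 models for follicle, theca and other ovary cells, 8 were at 0 in the oocyte library, 24 in the Taira egg and 27 in the Ueno egg. Their summed level was 1566 TPM in the oocyte library and 437 and 516 TPM in the eggs. Without keratin krt18 and gelsolin gsn, genes not particular to these cells, the sums were 46.0, 17.2 and 11.5 TPM. The part of such cells in the results was not tested.

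With TPM as deposited, more models were lower in eggs than higher. In both eggs 6539 models (51.8%) were lower than in the oocyte library and 4464 (35.4%) were higher, while 1619 (12.8%) had no common direction. Differences over 1 log2 unit in both eggs were downward in 4525 models and upward in 2300, and those over 3 log2 units were downward in 898 and upward in 221. The test was limma on log2(TPM + 1), adjusted by Benjamini and Hochberg over all 27827 models tested and called at an adjusted p under 0.05. It called 1360 models higher in egg (4.89%) and 4548 lower (16.3%). Among models at 10 TPM it called 1192 higher (9.44%) and 3773 lower (29.9%), each with the same direction in both eggs. The oocyte side is a single library and was assumed to vary like the stages with 2 libraries, so p-values measure the spread between libraries of those stages. The words rose and fell below are used of called models, and ± after a log2 difference is the standard error of the fit.

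A model that passed 10 TPM on 1 side alone had to differ, so the calls were also split by side. Of the 7700 models at 10 TPM on both sides, 644 rose and 1413 fell. Of 3423 models at 10 TPM in the oocyte library alone 2360 fell, and of 1499 at 10 TPM in the eggs alone 548 rose. Just inside the limit lay rictor-like.L, with 10.0 TPM in the oocyte library and 4.74 and 3.30 TPM in the Taira and Ueno eggs, and sema6d.S, with 2.27 TPM and then 9.00 and 11.01 TPM. Just outside lay nudt1.S, at 9.98, 4.55 and 2.23 TPM, and pex14.S, at 2.64, 11.6 and 8.4 TPM. Models with the suffixes L and S, for the long and short subgenomes of this allotetraploid frog, gave similar shares of calls. Of 4533 L models 9.4% rose and 29.0% fell, and of 3084 S models 10.0% rose and 28.3% fell, with no test of the difference.

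The balance of rises and falls depended on how the libraries were scaled. With TPM as deposited the median difference over models at 10 TPM was -0.40 in the Taira egg and -0.69 in the Ueno egg, and 77.0% of all calls were lower in egg. Median-of-ratios scaling uses the models detected in every library of the fit. It sets the typical one, in each library, level with its average over those libraries. After this scaling the median of the mean difference over models at 10 TPM moved from -0.55 to 0.20, and 45.9% of calls were lower (4003 higher and 3399 lower). After quantile normalization, which gives every library the same distribution, that median was -0.06 and 51.4% of calls were lower (2948 higher and 3115 lower). Median-of-ratios scaling turned the balance of directions, with 5818 models higher and 5133 lower in both eggs, while quantile normalization left 5457 higher and 5735 lower. Of the models at 10 TPM, 1115 were called higher and 2277 lower on all 3 scales. With the clutch as a replicate block 2482 models were higher and 7376 lower, and the 1192 and 3773 models above were all still called. Without the Taira egg 826 of the 1192 rises and 3506 of the 3773 falls were still called, and without the Ueno egg 762 and 2839. With both stage 40 libraries in the fit, which the main fit leaves out, 240 and 1732 were still called. The stage 40 libraries had a Spearman correlation of 0.492 with each other, and that fit counts their difference as spread. A call lost there is therefore no separate check on the oocyte or egg libraries.

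**Figure D1:**
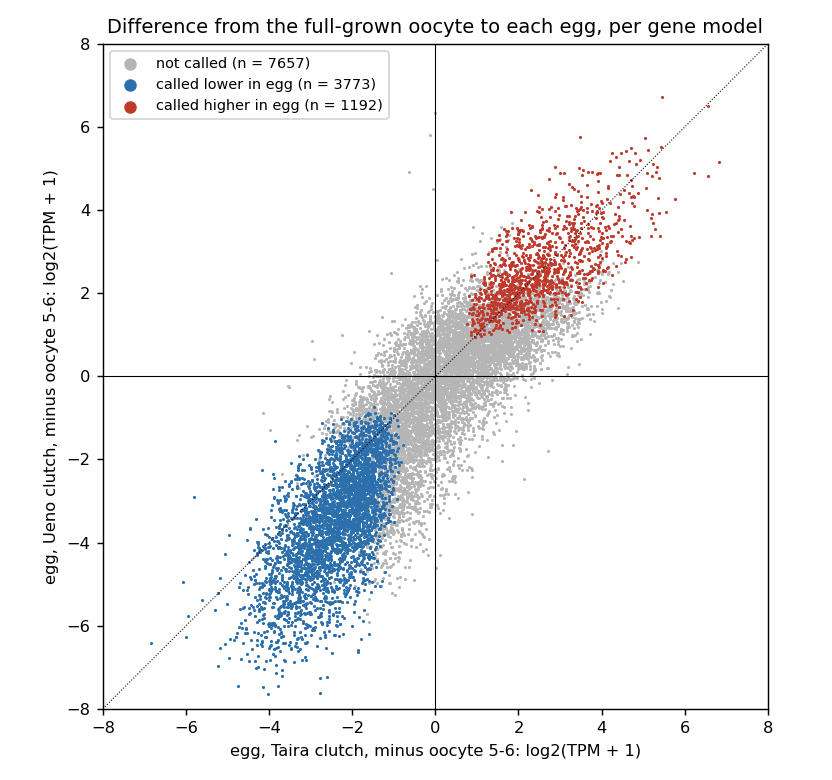
Difference of log2(TPM + 1) from the oocyte library to the Taira egg (horizontal axis) and to the Ueno egg (vertical axis) for the 12622 models with 10 TPM on 1 side, 1 point per model. The 1192 called rises lie in the upper right part and the 3773 called falls in the lower left, and the dotted line marks equal differences in both eggs.

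The 12 named rises began from low levels in the oocyte library. The named genes are those with a symbol whose smaller difference of the 2 eggs was largest. The model ncbp1.S (Xelaev18009967m), for the large subunit of the nuclear cap-binding complex, had 1.34 TPM in the oocyte library and 101 and 106 TPM in the Taira and Ueno eggs. Both eggs were far above the oocyte library and near each other (103 ± 3.76 TPM, SD, n = 2), a rise of 5.48 ± 0.75 log2 units (limma adjusted p = 0.000294). Its homeolog ncbp1.L did not share the rise, at 26.4 TPM in the oocyte library and 23.7 TPM in each egg (adjusted p = 1.0). For cpeb2-like.L, of the CPEB family that binds the polyadenylation element, the values were 1.22, 76.4 and 95.5 TPM, a rise of 5.28 ± 0.64 (adjusted p = 0.000183). Its copy cpeb2-like.S went from 0.97 to 46.6 and 83.9 TPM (5.01 ± 0.80, adjusted p = 0.000617).

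The adaptor of the PAN2-PAN3 deadenylase, pan3.S, had 4.73 TPM in the oocyte library and 149 and 149.9 TPM in the eggs, a rise of 4.71 ± 0.82 (adjusted p = 0.00107). Its copy pan3.L rose from 2.98 to 106 and 93.8 TPM. The scaffold of microRNA silencing tnrc6a-like.L had 0.27 TPM, then 34.5 and 51.8 TPM (5.09 ± 0.53, adjusted p = 9.09e-05). The RNA-binding ubiquitin ligase mex3b.L had 2.76 TPM, then 140.4 and 129.7 TPM (5.18 ± 0.46, adjusted p = 5.6e-05). The splicing regulator hnrnph1.L went from 5.54 to 273 and 177 TPM (5.08 ± 1.09, adjusted p = 0.00399). For hnrnph1.S, the other copy, the values were 76.7, 254 and 215 TPM, not called here (adjusted p = 0.131) but called higher after median-of-ratios scaling (0.00316) and quantile normalization (0.0491).

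Among the other named rises, rad21.S, the ring-closing subunit of cohesin that holds sister chromatids together, had 7.89 TPM in the oocyte library and 268 and 329 TPM in the eggs. Its rise of 5.07 ± 0.37 had the smallest adjusted p of the named rises (2.46e-05), and rad21.L rose as well, from 21.4 to 282 and 444 TPM. The membrane-associated kinase substrate marcks.L reached the highest level of the 12, from 10.96 to 483 and 395 TPM (5.20 ± 0.90, adjusted p = 0.000983). Its copy marcks.S, at 24.9, 213 and 125 TPM, was not called on this scale (2.67 ± 0.99, adjusted p = 0.0724) but was called higher after median-of-ratios scaling (0.00236), quantile normalization (0.0275) and with the clutch block (0.0189). The enzyme of phosphatidylcholine synthesis chpt1.L had 4.43, 153 and 186 TPM (4.97 ± 0.57, adjusted p = 0.000155). The nuclear receptor coactivator ncoa6.1 had 2.94, 130.1 and 209 TPM (5.40 ± 0.63, adjusted p = 0.000161). For fam76b.L the values were 2.19, 117 and 88.7 TPM (5.01 ± 0.89, adjusted p = 0.00121). The eggs differed most for ccdc50.1, at 174 TPM in the Taira egg and 54.2 TPM in the Ueno egg against 0.54 TPM in the oocyte library (6.00 ± 0.90, adjusted p = 0.000446).

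The 12 named falls began from some of the more abundant messages of the oocyte library. The immediate early gene ier2.L (Xelaev18019097m) had 634 TPM in the oocyte library and 9.26 and 10.6 TPM in the Taira and Ueno eggs. The eggs lay close together (9.95 ± 0.976 TPM, SD, n = 2), and the fall was -5.86 ± 0.88 log2 units (limma adjusted p = 0.000454). A second model of the gene, ier2.1, fell from 348 to 8.65 and 11.1 TPM. The small GTPase rhob.S had 387, 6.88 and 8.38 TPM, a fall of -5.50 ± 0.53 (adjusted p = 6.77e-05), while rhob.L had 15.7, 7.21 and 15.4 TPM and was not called (adjusted p = 0.751). Membrane scaffold slc9a3r1.S, which ties transporters to the cortex, was the most abundant of the 12 in the oocyte library at 783 TPM and fell to 22.6 and 8.08 TPM (-5.74 ± 0.48, adjusted p = 5e-05). Its copy slc9a3r1.L fell too, from 409 to 12.3 and 4.13 TPM.

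Factors of mRNA storage and patterning were also among the falls. The translational repressor zar1.L had 90.9 TPM in the oocyte library and 2.34 and 0.26 TPM in the eggs (-5.48 ± 0.47, adjusted p = 5e-05), and zar1.S had 366, 23.4 and 7.38 TPM. For lsm11.S, a subunit of the U7 particle that processes histone mRNA, the values were 218, 6.66 and 1.71 TPM (-5.59 ± 0.57, adjusted p = 8.29e-05). The homeobox gene otx1.L had 348, 9.75 and 6.76 TPM (-5.26 ± 0.43, adjusted p = 5e-05), and the BMP coreceptor rgma.S had 111, 2.1 and 0.21 TPM (-5.86 ± 0.51, adjusted p = 5e-05). In these genes both eggs were far under the oocyte library.

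Membrane and organelle genes were also on the list. The fatty acid elongation enzyme hsd17b12.S fell from 264 to 8.83 and 0.51 TPM (-6.10 ± 0.92, adjusted p = 0.000454). The endoplasmic reticulum degradation factor herpud1.S fell from 58.2 to 1.29 and 0.23 TPM (-5.14 ± 0.80, adjusted p = 0.000553). For mtx3-like.S, of the metaxin family of the mitochondrial outer membrane, the values were 277, 7.92 and 1.52 TPM (-5.88 ± 0.93, adjusted p = 0.00061), and mtx3-like.L, at 7.35, 5.34 and 0.83 TPM, was not called (adjusted p = 0.247; 0.0408 with the clutch block and 0.0346 without the Taira egg). For c8orf4.S they were 106, 2.87 and 0.39 TPM (-5.53 ± 0.74, adjusted p = 0.000264). The Ueno egg was the lower of the eggs in 10 of the 12 named falls and the higher in 7 of the 12 named rises. Copies of a pair can share reads, so the division between them is uncertain. Overlapping antisense transcripts cannot be told apart either, since the libraries carry no strand.

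**Figure D2:**
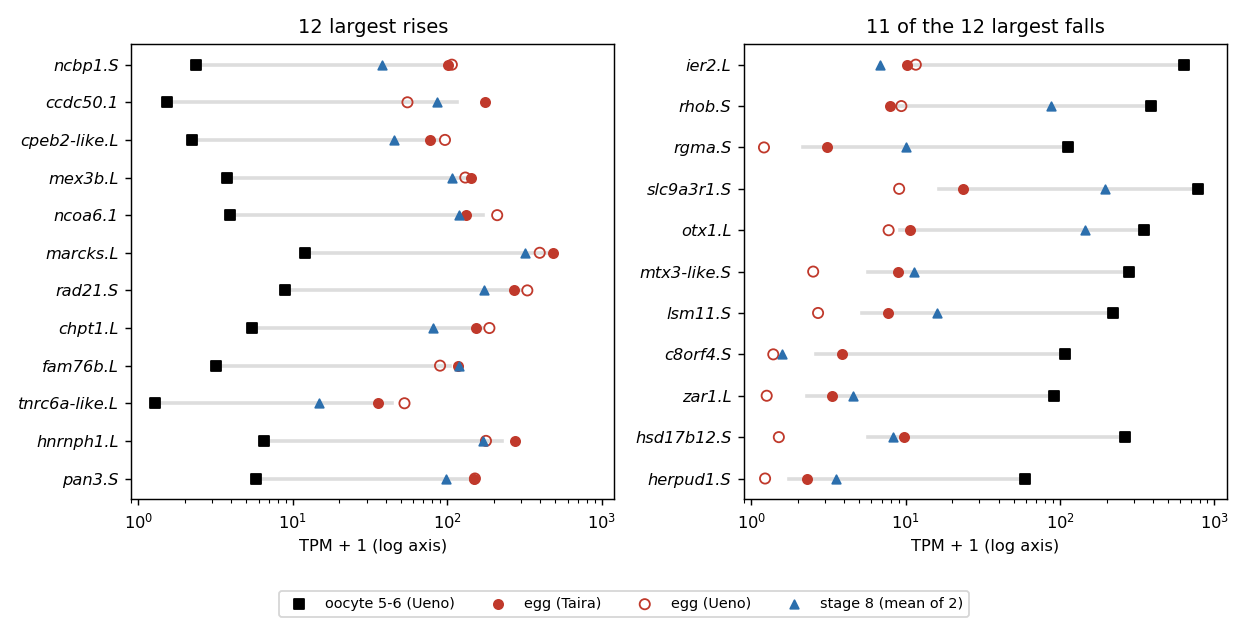
TPM + 1 on a log axis for the 12 named rises (left) and 11 of the 12 named falls (right) in the oocyte library (black squares), the Taira egg (filled red circles) and the Ueno egg (open red circles), with the mean of both stage 8 libraries as blue triangles and a grey line from the oocyte library to the mean of the eggs. The eggs lie on 1 side of the oocyte library in every row, and the stage 8 mean lies between egg and oocyte for most falls.

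Levels in the surrounding libraries were set beside these changes. Across the 1192 rises the median level was 5.14 TPM in oocytes of classes 1-2, 10.8 TPM in classes 3-4 and 11.8 TPM in classes 5-6, then 81.9 and 83.9 TPM in the Taira and Ueno eggs. At stage 8, the blastula, it was 56.1 and 62.2 TPM. Across the 3773 falls it was 34, 41.8 and 56.2 TPM in the 3 oocyte libraries, 9.34 and 3.41 TPM in the eggs, and 27.1 and 27.4 TPM at stage 8. Both classes were chosen with the egg values, and each oocyte class is 1 library of the Ueno clutch, so no test was made across the oocyte classes.

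All 12 named rises stayed above the oocyte library in both libraries of stage 8 and of stage 9, and all 12 were under 25 TPM in both younger oocyte classes. The rises were picked partly for a low level in the single library of classes 5-6, and the falls for a high one. Comparisons of later stages with that library are therefore partly fixed by the choice, and they were not tested. Between egg and stage 8 limma called 22% of all models higher and 1.3% lower, in a comparison that shares the egg libraries with the one above. The named falls were picked for low values in both eggs and the named rises for high ones. Their calls between egg and stage 8 are therefore partly favoured by the choice. Only tnrc6a-like.L of the named rises was called lower at stage 8, at 12.2 and 15.2 TPM (adjusted p = 0.018). Of the 12 named falls 6 were called higher at stage 8 than in egg, although none regained its oocyte level in either library. The strongest was otx1.L, with 152 and 135 TPM at stage 8 (3.98 ± 0.35 above egg, adjusted p = 5.01e-05). It was followed by slc9a3r1.S, with 207 and 183 TPM (3.74 ± 0.39, adjusted p = 0.000116), and rhob.S, with 75.6 and 98.1 TPM (3.34 ± 0.43, adjusted p = 0.000241). The immediate early gene ier2.L stayed low, at 6.82 and 4.91 TPM. In the younger oocyte libraries of classes 1-2 and 3-4 ier2.L was at 1589.5 and 361 TPM. All 12 named falls were lower in classes 3-4 than in classes 1-2 and higher again in classes 5-6. So were 36.4% of the 3773 falls, 20.7% of models at 10 TPM and 1 of the 12 named rises. The falls were picked partly for a high level in the single library of classes 5-6, and this pattern was not tested.

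**Figure D3:**
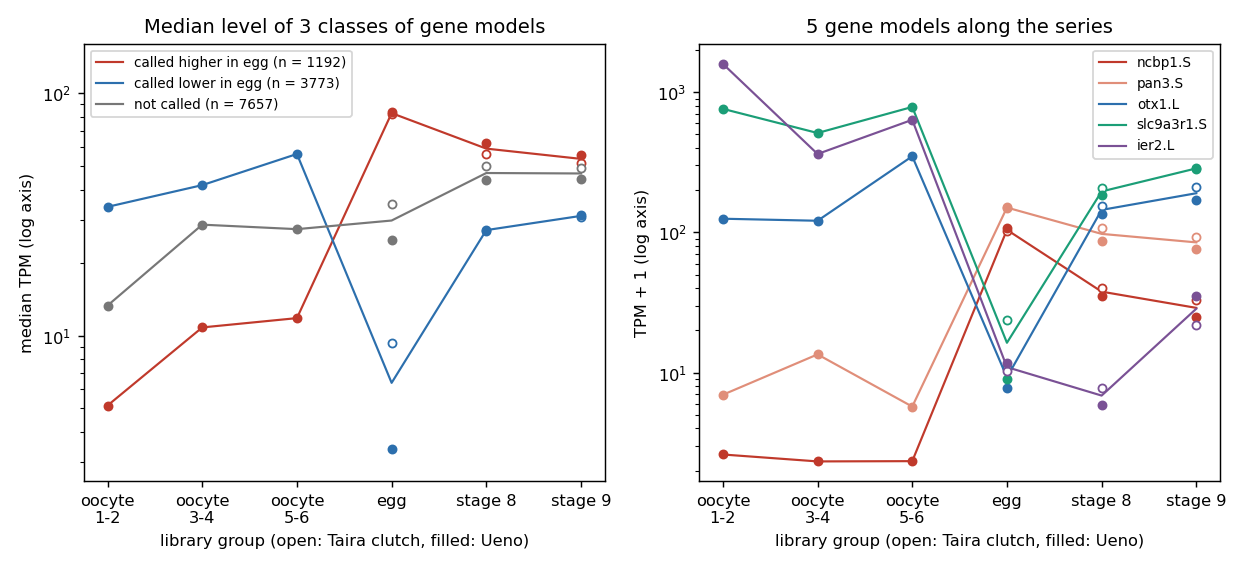
Left, median TPM of the 1192 models called higher in egg, the 3773 called lower and the 7657 not called, in each library from oocytes of classes 1-2 to stage 9, on a log axis. Right, TPM + 1 of 5 named models, where lines join group means and open and filled points are the Taira and Ueno libraries. The otx1.L and slc9a3r1.S levels are high in oocytes, low in eggs and higher again at stage 8, while ncbp1.S and pan3.S peak in eggs.

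Genes were next grouped into 23 lists of known function, each read against the 4.89% of all tested models that were called higher, the 16.3% called lower and their median difference of -0.05. Most members are at 10 TPM on 1 side, where these values were 9.44%, 29.9% and -0.55, so a share of falls up to about that of those models is no more than the background. By that measure the falls of the lists of meiosis, splicing, nucleoporins, replication, translation factors, actin and chaperones (16.7% to 33.3%) lie near or below the background. So do those of the list of polyadenylation and translation control (23.5%). Lists with larger shares include those of ribosomal proteins, mitochondrial ribosomal proteins, oxidative phosphorylation, proteasome and egg envelope (56% to 76.9%). The 3 members of a list with the largest difference shared by both eggs are named, and any others were singled out after their values were seen. Counts on other scales have other backgrounds. Of all 27827 models tested, 4003 were called higher and 3399 lower with median-of-ratios scaling, against 1360 and 4548 in the main test. The numbers were 2948 and 3115 with quantile normalization, and 2482 and 7376 with the clutch block. With both stage 40 libraries in the fit, no list had more than 2 members called higher or 15 called lower.

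Messages known from *Xenopus* to gain tails at maturation were mostly higher in eggs, though few passed the test. Of 24 such models 21 were higher in both eggs, with a median difference of 1.02. Their summed level went from 12708 TPM in the oocyte library to 23021 and 27871 TPM in the Taira and Ueno eggs. The mitotic kinase aurka.L, an activator of CPEB, rose from 320 to 615 and 1751 TPM (1.70 ± 0.48, adjusted p = 0.0209), and fgfr1.L, a growth factor receptor, rose from 11.8 to 34.2 and 109 TPM (2.28 ± 0.69, adjusted p = 0.0296). Both calls ended without the Ueno egg (adjusted p = 0.113 and 0.193). The kinase cdk2.S, the anaphase inhibitor fbxo5.S and the spindle motor kif11.S had larger values in both eggs and missed the threshold. Their levels were 107, 404 and 348 TPM for cdk2.S (adjusted p = 0.0734), 35.0, 193 and 160.2 TPM for fbxo5.S (adjusted p = 0.0811), and 138, 608 and 508 TPM for kif11.S (adjusted p = 0.109). All 3 were called higher with median-of-ratios scaling (0.000896, 0.00304 and 0.00346) and with the clutch block (0.0147, 0.0144 and 0.0109). The classic example mos.L, a kinase that starts the MAP kinase cascade, had 468, 472 and 940 TPM, so only the Ueno egg was far from the oocyte library (adjusted p = 0.637). Over all tested models median-of-ratios scaling called 4003 higher and the clutch block 2482, against 1360 in the main test. Of models at 10 TPM the main test called 9.44% higher and 29.9% lower. In all, 2 members of this list were called higher (8.33%) and 0 lower. These counts were 12 and 0 with median-of-ratios scaling, 6 and 0 with quantile normalization and with the clutch block, 4 and 0 without the Taira egg, and 0 and 0 without the Ueno egg.

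Of 49 models for regulators of meiosis 2 rose (4.08%) and 9 fell (18.4%), and the median was 0.51. Those shares are close to the 4.89% and 16.3% of all tested models but below the 9.44% and 29.9% of models at 10 TPM. Of the 52 listed models 47 were at 10 TPM. The shugoshin sgol1.L, which protects cohesin at the centromere, rose from 28.9 to 259 and 269 TPM (3.15 ± 0.66, adjusted p = 0.00351), and aurka.L is the other rise. The inhibitory kinase of Cdk1 pkmyt1.S fell from 23.7 to 3.28 and 1.09 TPM (-3.05 ± 0.46, adjusted p = 0.000471; 0.0562 after quantile normalization). The opposing phosphatase cdc25c.S fell from 59.7 to 12.8 and 0.98 TPM (-3.54 ± 0.83, adjusted p = 0.00698). Polo kinase plk1.L had 741, 949 and 1984 TPM and was not called (adjusted p = 0.311; 0.043 with the clutch block). Higher and lower counts were 16 and 7 with median-of-ratios scaling, 10 and 7 with quantile normalization, 15 and 13 with the clutch block, 7 and 8 without the Taira egg, and 1 and 6 without the Ueno egg.

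Cyclins went both ways. Of 34 listed models 7 rose (20.6%) and 5 fell (14.7%). Among all tested models these shares were 4.89% and 16.3%, and among models at 10 TPM 9.44% and 29.9%, so the falls do not exceed the background. The S-phase cyclin ccne1.L had 29.4 TPM in the oocyte library and 559.7 and 543 TPM in the eggs (4.18 ± 0.53, adjusted p = 0.000215). Its copy ccne1.S had 245, 944 and 964 TPM (1.96 ± 0.54, adjusted p = 0.0176; 0.0574 without the Ueno egg). The mitotic cyclin ccna2.L rose from 539 to 1415 and 2069 TPM (1.67 ± 0.40, adjusted p = 0.0075). All of the falls on this list belonged to 3 genes, ccnf, ccnb3 and ccnk. Cyclin I was not on the list, and both its copies, ccni.L and ccni.S, were called lower. The ubiquitin ligase subunit ccnf.L fell from 338 to 15.6 and 1.95 TPM (-5.60 ± 0.80, adjusted p = 0.000346) and ccnf.S from 207 to 21.9 and 2.54 TPM. Cyclin ccnb3.L fell from 94.4 to 11.4 and 0.43 TPM and ccnb3.S from 361 to 58.0 and 4.73 TPM. The transcriptional cyclin ccnk.S fell from 60.2 to 5.55 and 1.55 TPM (-3.90 ± 0.60, adjusted p = 0.000484) while ccnk.L rose from 55.9 to 143 and 235 TPM (1.70 ± 0.52, adjusted p = 0.0309; 0.151 without the Ueno egg). The most abundant cyclins, ccna1.L at 1640.0, 3089 and 4921 TPM and ccnb1.2.L at 1624, 2108 and 2769 TPM, were not called (adjusted p = 0.29 and 0.447). Median-of-ratios scaling called 13 cyclins higher, and without the Ueno egg 4 were higher.

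Spindle genes and kinesins gave 4 rises (10.0%) and 3 falls (7.5%) among 40 models, and a median of 0.14. Of models at 10 TPM 9.44% rose and 29.9% fell. The motor kif7.L, of hedgehog signalling, had 4.19 TPM in the oocyte library and 105 and 65.6 TPM in the eggs (4.01 ± 0.86, adjusted p = 0.00391). The cargo motor kif5b.L had 3.17, 62.2 and 29.6 TPM (3.40 ± 0.87, adjusted p = 0.012), and kif18a.L, a motor that shortens chromosome-bound microtubules, had 13.6, 95.7 and 109 TPM (2.82 ± 0.82, adjusted p = 0.024). The remaining rise was kif13b.L, at 4.52, 28.0 and 15.8 TPM. The falls were racgap1.2.L and racgap1.S, models of a cytokinesis protein, from 71.9 to 11.3 and 0.21 TPM and from 27.9 to 5.62 and 1.89 TPM, and kif1c.1, from 30.0 to 7.89 and 1.41 TPM. Without the Taira egg kif7.L alone stayed called among the rises, with 1 higher and 6 lower in the list (kif18a.L 0.0515, kif5b.L 0.0605 and kif13b.L 0.0659, adjusted p). Calls came to 3 and 2 without the Ueno egg (kif18a.L 0.0844), 16 and 4 with median-of-ratios scaling, 6 and 4 with quantile normalization, and 8 and 11 with the clutch block, where the median was -0.12.

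The machinery that lengthens, shortens and binds poly(A) tails went both ways, with 10 rises (12.3%) and 19 falls (23.5%) among 81 models. These shares lie near the 9.44% and 29.9% of models at 10 TPM. On the rising side were the cytoplasmic poly(A) polymerase papd4, with papd4.L at 16.9, 179.7 and 248 TPM (3.57 ± 0.75, adjusted p = 0.00336) and papd4.S at 49.0, 312 and 335 TPM (2.70 ± 0.48, adjusted p = 0.00126), and both copies of pan3 given above. The element-binding protein cpeb1.S had 100.1, 259 and 253 TPM (1.35 ± 0.42, adjusted p = 0.034), a call that ended without either egg (0.0742 and 0.0821). On the falling side were both copies of zar1 and the translational repressor patl2.L, at 361, 56.5 and 3.82 TPM (-4.44 ± 1.03, adjusted p = 0.00628). The median was -0.07 and its sign depended on the scale, at 0.64 after median-of-ratios scaling, 0.41 after quantile normalization and -0.35 with the clutch block. Calls on these scales were 19 and 13, 14 and 12, and 17 and 31, and they were 8 and 20 without the Taira egg and 6 and 13 without the Ueno egg.

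**Figure D4:**
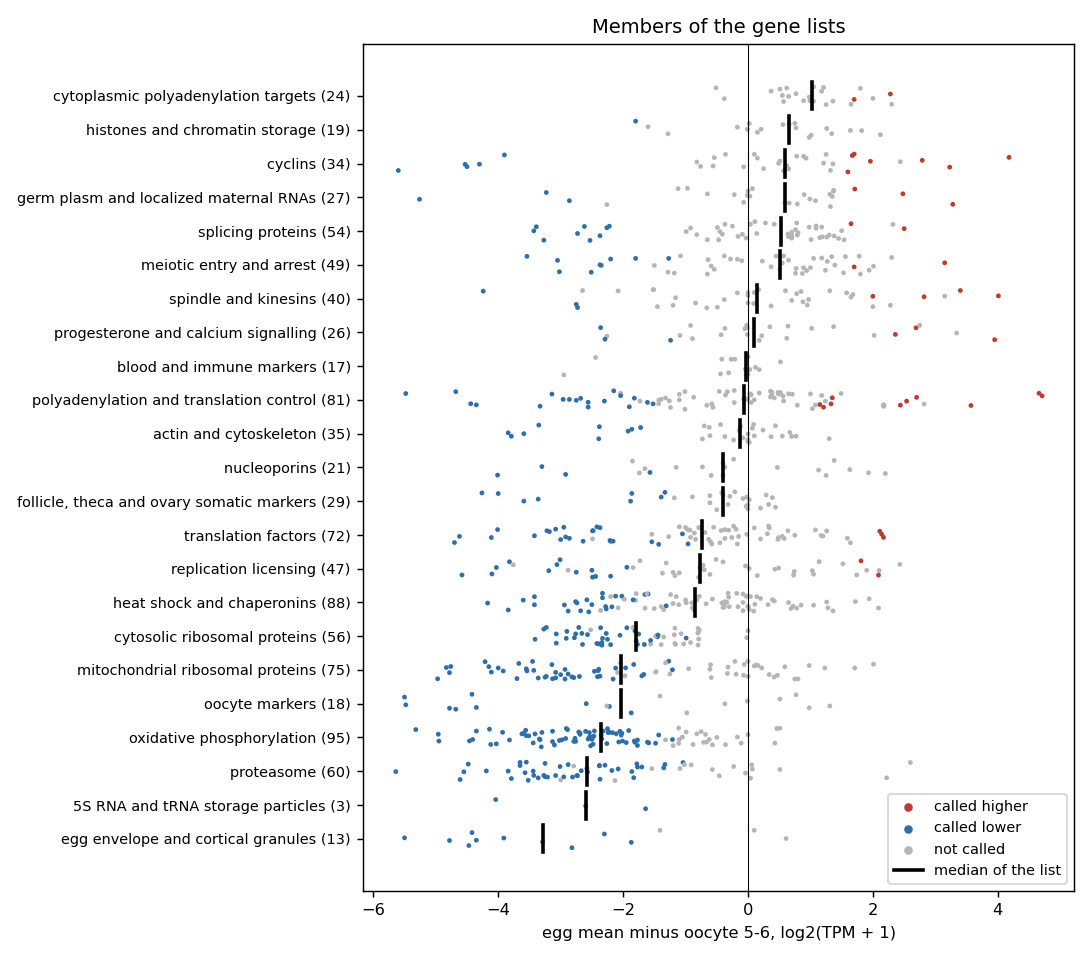
Difference of log2(TPM + 1) between the mean of the eggs and the oocyte library (horizontal axis) for each tested model of 23 gene lists (rows, with the number of models), coloured by the limma call, with a black bar at the list's median. Proteasome, respiratory chain and ribosomal protein models lie mostly below 0, and messages known to gain tails mostly above it.

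Messages for the housekeeping complexes were lower in eggs as groups. Among 56 tested models of cytosolic ribosomal proteins 33 fell (58.9%) and 0 rose, with a median of -1.80. Of the 60 listed models 54 were lower in both eggs. Their summed level was 15730 TPM in the oocyte library and 4052 and 5374 TPM in the eggs. The large-subunit protein rpl17.L had 192, 18.8 and 15.6 TPM (-3.41 ± 0.52, adjusted p = 0.000477), rpl23.L 928, 85.8 and 105 TPM (-3.27 ± 0.67, adjusted p = 0.00298), and the stalk protein rplp0.L 477, 56.7 and 44.1 TPM (-3.23 ± 0.47, adjusted p = 0.000362). The median stayed negative with median-of-ratios scaling, at -1.04 against 0.20 over models at 10 TPM, but calls dropped to 10, and rpl23.L was then not called (adjusted p = 0.101). At least 18.0% of models at 10 TPM were called lower on that scale, so the share of calls did not exceed the background there. No ribosomal protein model was called lower with stage 40 in the fit, which counts the difference between the unlike stage 40 libraries as spread.

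Mitochondrial genes followed the same direction. Of 75 tested models of mitochondrial ribosomal proteins 42 fell (56%) and 0 rose, with a median of -2.04. The 87 listed models had a summed level of 8649, 3899 and 3257 TPM. The large-subunit proteins mrpl10.S and mrpl14.L fell from 150.2 to 6.44 and 2.81 TPM (-4.83 ± 0.59, adjusted p = 0.000183) and from 426 to 34.9 and 21.01 TPM (-3.92 ± 0.53, adjusted p = 0.000268), and mrpl27.L from 161 to 13.1 and 6.21 TPM (-4.0 ± 0.71, adjusted p = 0.00113). Nuclear genes of oxidative phosphorylation gave 72 falls (75.8%) and 0 rises among 95 tested models, with a median of -2.35. Of the 98 listed models 86 were lower in both eggs. Their sum went from 18172 to 5587 and 5270.1 TPM. The ATP synthase subunit atp5a1.S fell from 550.4 to 27.2 and 5.77 TPM (-5.32 ± 0.97, adjusted p = 0.00141) and atp5a1.L from 627 to 35.2 and 10.2 TPM (-4.96 ± 0.96, adjusted p = 0.00203). Complex I subunit ndufb2.S had 581, 41.6 and 33.1 TPM (-3.93 ± 0.66, adjusted p = 0.000859), and complex III subunit uqcrc1.L had 675, 58.5 and 7.08 TPM. With median-of-ratios scaling 47 respiratory models were lower and 0 higher, and 32 mitochondrial ribosomal proteins were lower and 5 higher. Quantile normalization gave 37 lower and 2 higher of the latter. With stage 40 in the fit 6 respiratory models were lower, as were 15 mitochondrial ribosomal proteins.

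Proteasome genes were also lower in eggs. Of 60 tested models 43 fell (71.7%) and 0 rose, at a median of -2.58. The summed level of the 65 listed models was 5167 TPM in the oocyte library and 2112 and 1224 TPM in the eggs. The assembly chaperone psmg1.L fell from 463 to 23.1 and 2.62 TPM (-5.64 ± 0.86, adjusted p = 0.000475). Of the regulatory particle, psmd6.L fell from 191 to 11.2 and 4.48 TPM (-4.55 ± 0.66, adjusted p = 0.000356), and the assembly factor psmd5.L from 159.6 to 15.3 and 2.16 TPM (-4.48 ± 0.85, adjusted p = 0.00173). The activator psme3.L stood on the other side, at 49.7, 506 and 186 TPM, and was not called (2.60 ± 1.18, adjusted p = 0.148), though it was called higher with median-of-ratios scaling (0.0084) and with the clutch block (0.0158). With median-of-ratios scaling 2 models were higher and 32 lower. Of the proteasome models 29 were lower without the Ueno egg and 11 with stage 40 in the fit.

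Translation factors gave 3 rises (4.17%) and 24 falls (33.3%) among 72 models and a median of -0.73. Of models at 10 TPM 9.44% rose and 29.9% fell, with a median of -0.55, so the falls lie near the background. The median of the list was -0.05 after median-of-ratios scaling and -0.31 after quantile normalization. The 3 rises were eif4e3.L, a cap-binding protein, from 125 to 514 and 627 TPM (2.17 ± 0.47, adjusted p = 0.0042), and both copies of eif4g2, a scaffold of cap-independent initiation. For eif4g2.L the levels were 103, 385 and 515 TPM (adjusted p = 0.0148; 0.0726 without the Ueno egg) and for eif4g2.S 65.8, 274 and 313 TPM (adjusted p = 0.0351; 0.0668 and 0.113 without the Taira or the Ueno egg). The falls were led by eif2b4.L, of the exchange factor, from 173 to 11.8 and 2.48 TPM (-4.70 ± 0.68, adjusted p = 0.000368), and by eif3m.S, from 304 to 25.3 and 4.81 TPM (-4.62 ± 0.64, adjusted p = 0.000299). A further subunit of the same initiation complex, eif3h.S, fell from 92.2 to 6.74 and 2.75 TPM (-4.11 ± 0.46, adjusted p = 0.000139), while its homeolog eif3h.L had 98.7, 87.2 and 108 TPM. With median-of-ratios scaling 9 were higher and 17 lower, and the clutch block gave 7 and 34.

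Nuclear functions gave smaller groups. Of 54 splicing proteins 2 rose (3.7%) and 9 fell (16.7%), with a median of 0.53. The SR protein srsf6.S rose from 39.0 to 279 and 181 TPM (2.5 ± 0.81, adjusted p = 0.0397), a call lost without either egg (0.137 and 0.0664), and prpf19.S, a core spliceosome ubiquitin ligase, rose from 88.0 to 269 and 286 TPM (1.65 ± 0.36, adjusted p = 0.0045). The U2 particle subunits sf3b5.S and sf3a2.S fell from 381 to 40.7 and 36.5 TPM (-3.27 ± 0.64, adjusted p = 0.00216) and from 184 to 27.3 and 26.5 TPM (-2.73 ± 0.80, adjusted p = 0.024). Both lost their calls with median-of-ratios scaling (0.0841 and 0.241), and sf3a2.S also without either egg (0.0582 and 0.0779). The ring protein lsm7.L fell from 153 to 46.2 and 3.35 TPM. Splicing counts were 13 and 7 with median-of-ratios scaling, 8 and 8 with quantile normalization and 13 and 11 with the clutch block. Of 21 nucleoporins 4 fell (19%) and 0 rose, close to the 16.3% of all models but below the 29.9% of those at 10 TPM. They were nup188.S, from 48.1 to 4.25 and 0.78 TPM, nup85.L, from 100.2 to 18.6 and 4.36 TPM, nup50.L, from 195 to 30.6 and 20.1 TPM, and seh1l.L, from 39.0 to 13.3 and 11.7 TPM. The nucleoporin median was -0.40, but 0.13 after median-of-ratios scaling, where nup50.L and seh1l.L were not called (0.0696 and 0.277) and 4 other models were higher.

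Chromatin genes scarcely passed the test. Of 19 histones and storage chaperones 1 fell, the variant h2afv.L, from 11.7 to 2.68 and 2.63 TPM (-1.80 ± 0.37, adjusted p = 0.0028), and that call was lost after median-of-ratios scaling (0.167) and quantile normalization (0.231). Linker histone h1foo.L had 513, 1010 and 764 TPM (adjusted p = 0.258), h1f0.S had 10.3, 44.0 and 34.5 TPM (adjusted p = 0.25), and the HMG protein hmgb3.S had 169, 1176 and 460.2 TPM (adjusted p = 0.189). All 3 were called higher with median-of-ratios scaling (0.027, 0.0188 and 0.0084), and hmgb3.S with the clutch block (0.0247). The median was 0.66, and 7 models were called higher with median-of-ratios scaling. Of 47 replication genes 2 rose (4.26%) and 13 fell (27.7%), with a median of -0.77. Of models at 10 TPM 9.44% rose and 29.9% fell. The replication median was -0.02 after median-of-ratios scaling and -0.46 after quantile normalization. The subunits of ribonucleotide reductase, the enzyme that makes DNA precursors, parted: the large subunit fell, in rrm1.S from 201 to 31.7 and 1.19 TPM (-4.58 ± 1.05, adjusted p = 0.00589) and in rrm1.L from 242 to 43.1 and 3.56 TPM (-4.10 ± 0.85, adjusted p = 0.00307). The small subunit rose, in rrm2.2.L from 604 to 2232 and 2977 TPM (2.09 ± 0.47, adjusted p = 0.00516) and in rrm2.1.L from 23.5 to 72.9 and 98.9 TPM (adjusted p = 0.0249; 0.114 after quantile normalization and 0.107 without the Ueno egg). The licensing factor cdt1.S fell from 43.8 to 6.06 and 3.40 TPM (adjusted p = 0.0383; 0.0888 after quantile normalization, 0.0537 and 0.149 without the Taira or the Ueno egg). Without the Ueno egg 1 replication gene was higher and 7 were lower, against 10 and 13 with median-of-ratios scaling and 4 and 22 with the clutch block.

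Of 27 models for germ plasm and localized RNAs 3 rose and 3 fell (11.1% each), with a median of 0.59. Of models at 10 TPM 9.44% rose and 29.9% fell. The germ cell protector dnd1.L rose from 15.9 to 172 and 153 TPM (3.28 ± 0.50, adjusted p = 0.00047). The RNA-binding protein bicc1.L rose from 5.50 to 33.4 and 37.3 TPM (2.48 ± 0.52, adjusted p = 0.00317) and the germ plasm organizer grip2.S from 1.12 to 6.46 and 5.48 TPM (adjusted p = 0.0282; 0.0858 and 0.067 without the Taira or the Ueno egg). The falls were otx1.L, otx1.S, from 22.3 to 2.34 and 0.84 TPM (-3.23 ± 0.64, adjusted p = 0.00222), and rbpms2.S, an RNA-binding protein, from 368 to 122 and 20.0 TPM (adjusted p = 0.021; 0.132 without the Ueno egg). Germ plasm counts were 7 and 3 with median-of-ratios scaling, 5 and 3 with quantile normalization, 5 and 4 with the clutch block, 2 and 5 without the Taira egg, and 2 and 2 without the Ueno egg.

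Genes whose products the growing oocyte makes for its coat were among the most reduced. Of 13 tested models for the egg envelope and cortical granules 10 fell (76.9%) and 0 rose, with a median of -3.29. The sum of the 16 listed models went from 3834 to 552 and 263 TPM. The zona pellucida protein zp4.S fell from 1197 to 60.8 and 10.3 TPM (-5.50 ± 0.80, adjusted p = 0.000382) and zp4.L from 569 to 31.7 and 12.2 TPM (-4.78 ± 0.61, adjusted p = 0.000218). The envelope protein zp3.2.L fell from 412 to 44.1 and 8.07 TPM and the protease ovch1.L from 71.6 to 4.97 and 0.81 TPM (-4.47 ± 0.53, adjusted p = 0.000168). By contrast zp2.L, at 240.2, 101 and 79.8 TPM, was not called (-1.41 ± 0.55, adjusted p = 0.091). With median-of-ratios scaling 8 models of this list were lower. The list of oocyte markers shares zp4.S and zp4.L with the envelope list. It shares zar1.L with the list of polyadenylation and translation control, so it gives no separate evidence on these falls. Of its 20 listed models 13 were lower in both eggs and 4 were higher. Among models at 10 TPM 29.9% fell. Of 18 tested oocyte markers 9 fell and 0 rose, with a median of -2.04. They included figla.L, the transcription factor of zona genes, from 109 to 24.1 and 12.4 TPM (-2.59 ± 0.54, adjusted p = 0.00341), and bmp15.L, from 92.8 to 21.7 and 16.9 TPM (-2.22 ± 0.50, adjusted p = 0.00535), whereas gdf9.L, at 34.6, 27.8 and 10.4 TPM, was not called (adjusted p = 0.285; 0.0113 with the clutch block and 0.0473 without the Taira egg).

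The storage particles in which young oocytes keep 5S RNA and tRNA were represented by 3 tested models, and all fell. The particle protein 42Sp43.L had 235, 23.2 and 7.56 TPM (-4.04 ± 0.69, adjusted p = 0.000904). Its partner 42Sp50.L had 49.6, 14.8 and 15.5 TPM (-1.64 ± 0.40, adjusted p = 0.008), a call that median-of-ratios scaling and quantile normalization ended (0.232 and 0.293). The 5S gene transcription factor gtf3a.L had 117, 44.8 and 7.25 TPM (adjusted p = 0.0493; 0.073 and 0.0947 on those scales and 0.319 without the Ueno egg).

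Signalling genes of maturation and egg activation showed 3 rises and 3 falls among 26 models, 11.5% each. Of all tested models 4.89% rose and 16.3% fell, and of those at 10 TPM 9.44% and 29.9%. The share of falls is thus no more than the background. The Src family kinase yes1.S rose from 1.49 to 55.4 and 25.1 TPM (3.95 ± 0.85, adjusted p = 0.00417). The insulin receptor insr.1 rose from 0.76 to 7.46 and 8.62 TPM (adjusted p = 0.0227; 0.083 without the Ueno egg) and the adenylyl cyclase adcy7.L from 3.73 to 51.5 and 16.7 TPM (adjusted p = 0.043; 0.215 without the Taira egg). All 3 falls were subunits of calcineurin, the calcium-dependent phosphatase, with ppp3r1.L from 62.9 to 17.8 and 7.29 TPM, ppp3cb.S from 8.04 to 1.19 and 0.56 TPM, and ppp3cb.L from 15.4 to 5.51 and 6.39 TPM. Of these ppp3r1.L lost its call without the Ueno egg (0.0815), ppp3cb.S after quantile normalization (0.104), and ppp3cb.L after both other scalings (0.671 and 0.85) and without either egg (0.114 and 0.0802). The inhibitory G protein gnai1.S had 15.3, 253 and 106 TPM (3.34 ± 1.15, adjusted p = 0.0531) and gnai1.L had 20.3, 233 and 85.8 TPM (adjusted p = 0.127). Both were called higher with median-of-ratios scaling (0.00283 and 0.00798) and with the clutch block (0.00123 and 0.0141). The median was 0.09, but -0.14 with the clutch block, where 6 were higher and 6 lower. Counts were 8 and 2 with median-of-ratios scaling, 7 and 1 with quantile normalization, 2 and 2 without the Taira egg and 2 and 1 without the Ueno egg.

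Structural and chaperone genes gave falls and no rise with TPM as deposited. The shares of falls in both lists lie between the 16.3% of all tested models and the 29.9% of models at 10 TPM. Of 35 actin and cytoskeleton models 9 fell (25.7%) and 0 rose. The keratin krt18.S had 361, 32.7 and 25.7 TPM (-3.59 ± 0.37, adjusted p = 8.48e-05), the cytoplasmic actin actg1.L 101, 15.4 and 2.29 TPM (-3.79 ± 0.71, adjusted p = 0.00156), actg1.S 397, 75.9 and 9.08 TPM, and the tubulin tuba4b.L 16.4, 0.93 and 0.51 TPM (-3.35 ± 0.55, adjusted p = 0.000735). The median of -0.13 was 0.03 after median-of-ratios scaling and 0.10 after quantile normalization, with 2 and 6, and 1 and 7, called higher and lower, and 6 were lower without the Ueno egg. Among 88 heat shock proteins and chaperonins 24 fell (27.3%) and 0 rose, at a median of -0.85. The model hspb11.L, placed on the list by its symbol alone, had 72.3, 11.4 and 0.34 TPM (-4.17 ± 0.97, adjusted p = 0.00659). For dnaja3.L of the mitochondrion the values were 63.6, 8.82 and 2.73 TPM (-3.42 ± 0.46, adjusted p = 0.000268). For dnajc17.L they were 49.0, 7.69 and 1.52 TPM (-3.42 ± 0.68, adjusted p = 0.00239). The endoplasmic reticulum chaperone hspa5.L fell from 126 to 25.99 and 1.93 TPM, while hsp90ab1.L had 511, 748 and 1143 TPM and was not called (adjusted p = 0.447). Chaperones called higher and lower were 6 and 17 with median-of-ratios scaling, where the median was -0.16, 2 and 22 with quantile normalization and 2 and 41 with the clutch block, and without the Ueno egg 16 were lower.

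Some markers of cells around the oocyte were among the falls. Of 29 tested follicle, theca and ovary somatic models 8 fell (27.6%) and 0 rose, with a median of -0.40. That share lies between the 16.3% of all tested models and the 29.9% of models at 10 TPM. Of the 46 listed models 5 were at 10 TPM on 1 side. Gelsolin, an actin-severing protein, fell in gsn.S from 395 to 38.9 and 14.3 TPM (-4.0 ± 0.53, adjusted p = 0.000258) and in gsn.L from 165 to 13.98 and 3.99 TPM (-4.26 ± 0.57, adjusted p = 0.000267). With krt18.S, which fell, and its copy krt18.L, which was not called, these were the abundant members. The collagen chain col1a2.L fell from 10.4 to 0.05 and 0.18 TPM and the smooth muscle protein tagln.L from 4.88 to 0.74 and 0.50 TPM. The remaining calls were acta2.L, foxl2.L and inhbb.L, at 2.67, 1.51 and 1.62 TPM in the oocyte library and listed at 0 in both eggs. The calls of acta2.L and foxl2.L ended after either other scaling and without either egg, and those of tagln.L (0.158) and inhbb.L (0.0671) ended after quantile normalization. The granulosa markers amh.L, inhba.L, inhba.S and fshr.S were at 0 in all 3 libraries, cyp19a1.L was at 1.80 TPM in the oocyte library and 0 in the eggs, and fshr.L was at 0.09 TPM in the oocyte library. Of 17 tested blood and immune models none was called (limma, also after both other scalings) and 1 was lower with the clutch block, with hbg1.L at 13.5, 0.44 and 1.43 TPM and hba1.L at 12.7, 1.59 and 1.44 TPM (adjusted p = 0.0741 and 0.157). The model lower with the block was hbg1.L (0.0033). The 22 listed blood and immune models summed to 28.7, 3.8 and 4.8 TPM. The part of these cells in the falls was not tested.

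Homeologous copies had the same direction in 1400 of 2087 pairs (67.1%), which were measured in the same 3 libraries, can share reads, and were given no reference value from unrelated models. The pairs have an L and an S model, each at 10 TPM on 1 side. Both copies were lower in both eggs in 813, both higher in 587, opposite in 252, and without a common direction within a copy in 435. Both copies were called lower in 409 pairs and higher in 124, 1 copy alone was called in 583, and no copy in 964. The median absolute gap between the differences of the copies was 0.829 log2 units. Calls in opposite directions were found in 7 pairs, apip, ccm2, ccnk, hbegf, msl1, mvb12b and wbp11, chosen after their values were seen. The methionine salvage enzyme apip.L fell from 26.9 to 4.13 and 1.28 TPM (-3.03 ± 0.50, adjusted p = 0.000813) and apip.S rose from 5.01 to 31.5 and 29.4 TPM (2.39 ± 0.53, adjusted p = 0.00492). Both calls of apip held on all 3 scales and without either egg. The chromatin factor msl1.L fell from 51.4 to 8.53 and 6.77 TPM (-2.61 ± 0.39, adjusted p = 0.000457), and msl1.S rose from 67.3 to 129 and 228 TPM (1.33 ± 0.38, adjusted p = 0.0219; 0.118 without the Ueno egg). The growth factor hbegf.L fell from 14.9 to 2.70 and 1.84 TPM and hbegf.S rose from 3.00 to 9.29 and 32.2 TPM, with calls lost without the Ueno egg (adjusted p = 0.0703 and 0.248).

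In the other 3 pairs, beside ccnk given above, a call depended on the scale. The spliceosome-associated wbp11.S rose from 77.9 to 282 and 413 TPM (2.12 ± 0.39, adjusted p = 0.00139), and wbp11.L fell from 31.8 to 14.9 and 8.29 TPM (adjusted p = 0.0383; 0.124 after median-of-ratios scaling and 0.183 without the Ueno egg). The junction protein ccm2.L rose from 1.25 to 7.54 and 18.6 TPM (0.0816 without the Ueno egg, adjusted p) and ccm2.S fell from 11.8 to 1.18 and 2.05 TPM (adjusted p = 0.00248; 0.118 after median-of-ratios scaling). The sorting complex subunit mvb12b.L fell from 10.1 to 1.65 and 1.71 TPM and mvb12b.S rose from 2.75 to 14.8 and 14.4 TPM. After median-of-ratios scaling mvb12b.L was not called (adjusted p = 0.125), and neither copy was called without the Taira egg (0.0631 and 0.109) or the Ueno egg (0.0735 and 0.12).

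**Figure D5:**
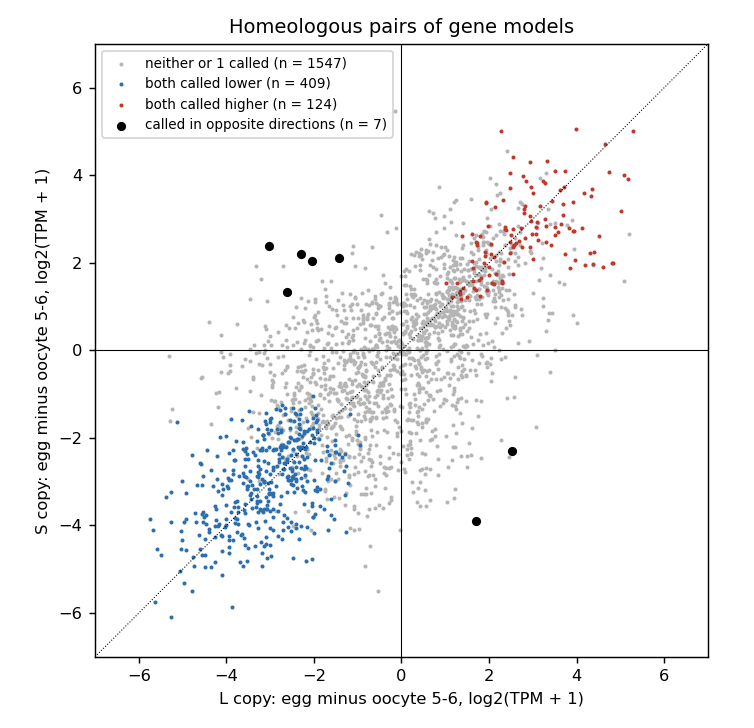
Difference of log2(TPM + 1) between the mean of the eggs and the oocyte library for the L copy (horizontal axis) and the S copy (vertical axis) of 2087 homeologous pairs. Pairs with both copies called lower (409) and higher (124) lie along the dotted line of equal differences, and the 7 pairs called in opposite directions are drawn in black.

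The highest levels of all in the eggs belonged to models without a gene symbol. Xelaev18004681m had 2079 TPM in the oocyte library and 27620.3 and 12168 TPM in the Taira and Ueno eggs (3.14 ± 0.63, adjusted p = 0.0026). It stood at 140.4 TPM in oocytes of classes 1-2 and at 13544 TPM in classes 3-4, so the full-grown library was low against both neighbours. Xelaev18001106m showed the same order, with 3054 TPM in classes 3-4, 491 TPM in classes 5-6, and 16949 and 7965 TPM in the eggs (4.56 ± 0.47, adjusted p = 8.29e-05). Of the 4681 models at 10 TPM without a symbol 9.3% rose and 31.4% fell, against 9.5% and 29.0% of those with a symbol.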

How the data were processed

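PolyA RNA was captured and sequenced on the HiSeq 2000 without strand information, per the labels' protocols. TPM, scaled within each library for every gene model, is the unit the authors deposited, and it was not rescaled in the main test. Per the submitters' processing notes the tools were BWA 0.7.10 and RSEM 1.2.19, with settings not given in the sources used here. TPM keeps no read counts, so depth is unknown and no counting intervals or floors are given.

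Models with at least 1 TPM in at least 2 of 21 libraries were tested in R 4.3.3 by limma, version 3.58.1 (two-sided, eBayes with a mean-variance trend) on log2(TPM + 1), which understates the changes of models with low TPM. The fit held the oocyte library of classes 5-6, both eggs and both libraries of stages 8 to 35, with 10 residual degrees of freedom. Stage 40 was left out. The library labelled stage 40 Ueno had Spearman correlations of 0.939 and 0.965 with the Taira and Ueno eggs but 0.492 with stage 40 Taira, which left stage 40 without a like pair to measure spread. The contrast was the mean of the eggs minus the oocyte library, adjusted by Benjamini and Hochberg and called under 0.05. Labels do not say that libraries of a stage were separate animals beyond the named clutch, so p-values measure the spread between these libraries. The script was tested on simulated data, with 50 models changed at each of 4 sizes. It called 4%, 24%, 38% and 68% of changes of 1, 2, 3 and 4 log2 units, with 2 false calls. The simulated noise was independent between libraries, without differences between clutches or shifts of a whole library, and few models were changed. The shares called and the number of false calls may therefore not carry over to the real data. A model that was not called may still have changed.

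The named genes are the 12 rises and 12 falls with a symbol, 10 TPM on 1 side, the same direction in both eggs and the largest smaller difference, 1 model per symbol, and the up to 3 such members of each of 23 gene lists. Members and lists were chosen with earlier results of these data known, and 3 lists were corrected after the files were read (envelope and globin name patterns, and zar1 taken out of the storage particles). The values of 1 of the 12 named falls are not reported here. Lists were described by counts and medians. The clutch named in the labels pairs the libraries: differences between clutches at 2 stages correlated across models at a median of 0.415 (0.173 to 0.879) over 45 stage pairs, all above 0.1. The main fit did not use this pairing. Since the oocyte library is of the Ueno clutch alone, differences between clutches enter both its contrast and its spread. A planned look at letters near transcript ends was not run, since no transcript sequences were used here. The alternatives tried were other pseudocounts, filters, scalings, sets of libraries and the clutch block.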

Additional observations from a re-analysis of the deposited data

How the results depend on the processing

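Against 1360 models higher and 4548 lower, median-of-ratios scaling called 4003 higher and quantile normalization 2948. The clutch as replicate block called 2482 and 7376, stage 40 in the fit 278 and 1950, and the oocyte library with the eggs alone 637 and 1621. Without 1 egg the counts ran from 974 to 1071 higher and from 3285 to 4835 lower. Over 1 log2 unit, 3821 models were higher in both eggs after median-of-ratios scaling, against 2300. The causes of these shifts were not tested. Other pseudocounts, filters, eBayes without trend, the second Ueno series, and spread from the early stages alone kept both counts within 1.5 times (1041 to 1871 higher, 4389 to 4985 lower). Pairs of homeologs with the same direction ranged from 1371 to 1409 over scalings and pseudocounts. With the block, every call of a named model held.

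Of 171 named models under 14 settings, 2092 of 2379 values kept direction and call, 229 lost a call, 54 gained one and 4 reversed. The reversed values, none of them called in the main test, were ncbp1.L at 0.60 and 0.38 and rhob.L at 0.21 and 0.12 after median-of-ratios scaling and quantile normalization. The 12 rises and 12 falls kept their calls in every setting run, except that zar1.L was not tested under the filter at 5 TPM. With 1 oocyte library, no spread on that side could be measured. Counting error is unknown.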
